A study of Mus musculus with 6 samples.

Results

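Of 9 genes of fructose metabolism and the pentose phosphate pathway, Taldo1, which encodes transaldolase, rose when RetSat was depleted in primary mouse hepatocytes, the remaining measured genes did not pass the threshold, and none fell. The genes were taken by name, as Khk, Sord, Slc2a2, Slc2a5, G6pdx, H6pd, Pgd, Tkt and Taldo1, each read from the brightest probe set that the platform annotation gives to that symbol alone. By this rule 7 of the 9 were measured, out of 19938 genes in all, each with a single probe set. Sord and G6pdx were not analysed here, since the annotation used here pairs no probe set with either symbol.

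Hepatocytes from a male wild-type C57BL/6J mouse, 10 weeks old by the labels, were held in medium with 25 mM glucose and received either control siRNA (siControl, n = 3) or siRNA against RetSat (siRetSat, n = 3). All cultures were transfected overnight with 1 nmol of siRNA by Lipofectamine, and RNA was harvested 48 h after the medium change on the next morning. Each of the 6 samples was hybridised to its own Affymetrix Mouse Gene 1.0 ST array, and values are log2 intensities that the authors normalized by RMA. Cells came from 1 mouse by the series' description, while the growth protocol of the samples speaks of mice. The description is followed here. On that reading p-values measure the spread between transfections and not between mice, and the number of arrays limits the precision. No second siRNA against RetSat was analysed here, so that other effects of the siRNA cannot be told apart from loss of RetSat. The log2 intensity of Retsat itself was 6.80, 7.04 and 7.01 in siControl and 4.62, 4.83 and 4.81 in siRetSat, which leaves 21.8% of the control signal (limma adjusted p = 0.000112). The groups were compared by limma, and a gene was called where its p, adjusted by Benjamini-Hochberg across the 19938 genes, was under 0.05. Of these genes 3.56% were called, 1.91% higher and 1.66% lower in siRetSat, beside 1 higher and 0 lower of the 7 measured genes of fructose and pentose phosphate metabolism.

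Fructose and glucose enter hepatocytes through facilitative transporters, and ketohexokinase then traps fructose as fructose 1-phosphate, by-passing the phosphofructokinase step of glycolysis. The pentose phosphate pathway takes glucose 6-phosphate instead. Its oxidative arm makes NADPH, which liver uses for fatty acid synthesis and for keeping glutathione reduced, and its non-oxidative arm interconverts pentose, sedoheptulose and hexose phosphates, which reconnects it with glycolysis. Fructose and phosphorylated sugars are known to activate ChREBP, the transcription factor whose activity the study examined.

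The promoters of Taldo1, Khk and Pgd are shown because these were the genes whose 3 siRetSat arrays all lay above the 3 siControl arrays. Sequences are the 250 bases before a RefSeq start in GRCm38.p6, given 5′ to 3′ on the gene's own strand, at chr7:141391910-141392159 (plus strand) for Taldo1, chr5:30921309-30921558 (plus strand) for Khk and chr4:149166706-149166955 (minus strand) for Pgd. Capitals mark matches on either strand to the E-box (letters CACGTG), the GC box (letters GGGCGG) or the CCAAT box.
Taldo1: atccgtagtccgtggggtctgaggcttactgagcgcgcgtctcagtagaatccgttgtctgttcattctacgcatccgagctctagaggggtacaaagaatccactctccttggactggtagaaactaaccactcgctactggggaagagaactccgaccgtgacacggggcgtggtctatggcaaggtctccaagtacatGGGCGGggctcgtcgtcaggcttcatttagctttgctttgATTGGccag
Khk: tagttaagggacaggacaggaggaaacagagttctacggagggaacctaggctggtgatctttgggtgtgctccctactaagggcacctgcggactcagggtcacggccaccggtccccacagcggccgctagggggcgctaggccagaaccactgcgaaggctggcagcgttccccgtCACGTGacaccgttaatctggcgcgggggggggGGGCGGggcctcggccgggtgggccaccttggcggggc
Pgd: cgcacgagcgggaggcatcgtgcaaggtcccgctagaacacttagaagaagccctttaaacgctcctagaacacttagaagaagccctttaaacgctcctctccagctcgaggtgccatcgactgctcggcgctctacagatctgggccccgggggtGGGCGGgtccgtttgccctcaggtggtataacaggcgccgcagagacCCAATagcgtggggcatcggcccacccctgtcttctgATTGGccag
Windows of 300 bases, 250 before and 50 after the start, were searched for these motifs and for TGACNNNGC, the core of the antioxidant response element that NRF2 binds. CACGTG occurred in 7.15% of the 32851 windows in the table, TGACNNNGC in 12.4%, GGGCGG in 35.7% and CCAAT in 37.4%. Khk held 1 CACGTG, beginning 71 bases before the start, and was the only listed gene with this motif in its window. Taldo1 held 1 GGGCGG, 49 bases before the start, and 1 CCAAT on the opposite strand, 9 bases before it, with no CACGTG and no TGACNNNGC. In Pgd, CCAAT occurred 2 times, 46 and 9 bases before the start, beside 1 GGGCGG at 93 bases, and a second RefSeq start of this gene had 1 TGACNNNGC just after the start. The Tkt window held 5 GGGCGG and none of the other motifs. Matches to different motifs did not overlap in these windows. A match is a description of letters and not a site of binding.

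Taldo1 carries out the transaldolase step, in which a 3-carbon unit is passed from sedoheptulose 7-phosphate to glyceraldehyde 3-phosphate. Its log2 intensity was 7.86, 7.78 and 7.96 in the siControl arrays and 8.62, 8.74 and 8.64 in the siRetSat arrays. The groups were far apart, with the lowest siRetSat array 0.66 above the highest siControl array. The means were 7.87 ± 0.09 and 8.67 ± 0.06 (SD, n = 3 each), and the log2 fold change was 0.80 (SE 0.0898, 95% interval 0.59 to 1.01, limma adjusted p = 0.00341), or 1.74-fold. A two-sided exact permutation test of 3 against 3 arrays cannot go below 0.1, so that limma was the test used. Its rise passed the threshold in all 6 fits that left out a single array, with log2 fold changes from 0.76 to 0.85. It did not pass without both arrays numbered 2 (0.72, limma adjusted p = 0.208) or without both numbered 3 (0.86, limma adjusted p = 0.0506), fits in which 2 arrays a group remain.

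**Figure D1:**
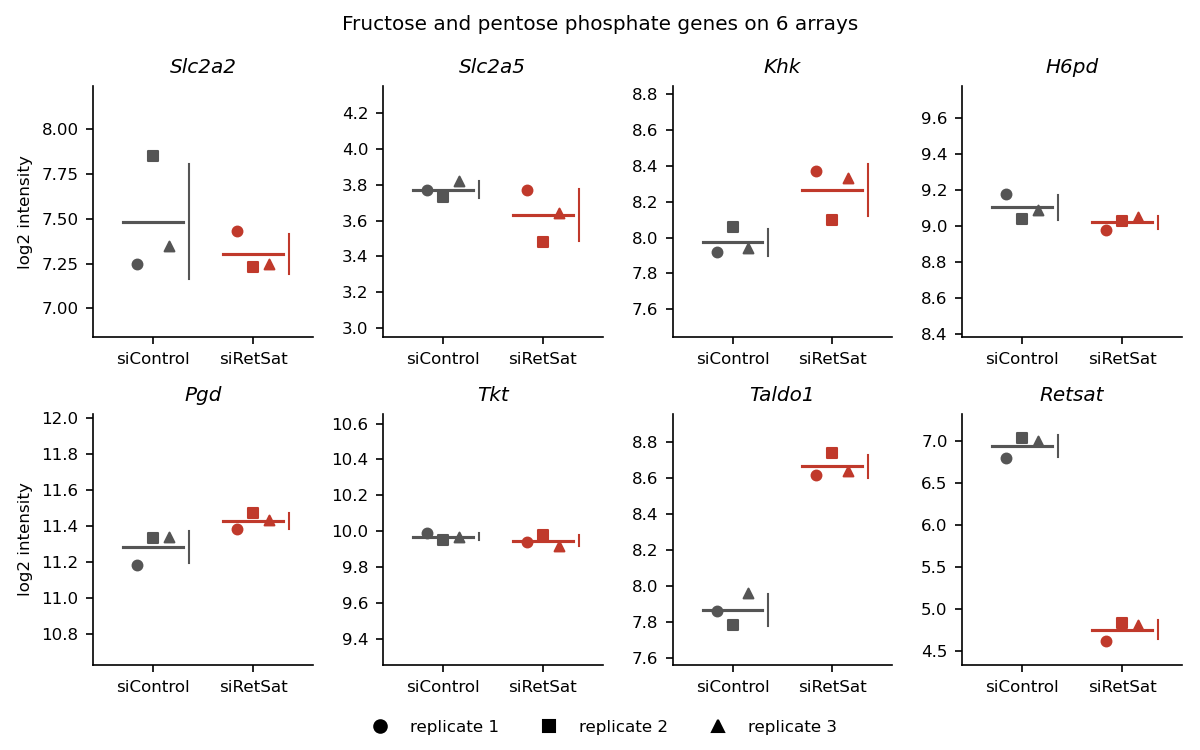
Log2 intensity (y axis) of the 7 measured genes and of Retsat on each array, with siControl in grey, siRetSat in red and marker shapes for replicate numbers. Each group's mean is a horizontal bar and the vertical line beside it spans the mean ± 1 SD (n = 3), each gene's axis spans 1.4 log2 units (3 for Retsat), and Taldo1 moves from a mean of 7.87 to 8.67 while Tkt stays within 9.92 to 9.99.

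Transketolase, the partner of transaldolase in the non-oxidative arm, had the smallest SD of the 7 measured genes in both groups and no detectable change. The log2 intensity of Tkt was 9.99, 9.95 and 9.97 in siControl and 9.94, 9.98 and 9.92 in siRetSat. The groups overlapped, and the log2 fold change was -0.02 (95% interval -0.21 to 0.16, limma adjusted p = 0.963), with a sign that turned under repeated quantile normalization and array weights. On each array, the Taldo1 value minus the Tkt value was -2.13, -2.17 and -2.01 in siControl and -1.32, -1.24 and -1.28 in siRetSat. The distance between these probe sets therefore narrowed by 0.82 on the log2 scale. This shows unequal change of the mRNA signals for these enzymes and not their relative amounts. The same difference taken against each of the other measured genes changed by 0.51 against Khk to 0.98 against Slc2a2. All these differences contain the same Taldo1 values, so they restate the rise of Taldo1 and are no further evidence for it.

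In the oxidative arm, neither measured dehydrogenase passed the threshold. Pgd, which encodes 6-phosphogluconate dehydrogenase and yields the NADPH of the pathway's last oxidative step, read 11.18, 11.33 and 11.34 in siControl and 11.38, 11.47 and 11.43 in siRetSat. Its siRetSat arrays were all higher, by 0.04 at the closest pair, and the log2 fold change was 0.14 (95% interval -0.06 to 0.35, limma adjusted p = 0.565). H6pd encodes hexose-6-phosphate dehydrogenase, which runs the opening steps of the pathway inside the endoplasmic reticulum. The log2 intensity of H6pd was 9.18, 9.04 and 9.09 in siControl and 8.98, 9.03 and 9.05 in siRetSat. These groups overlapped, and the interval of the log2 fold change of -0.08 ran from -0.28 to 0.11 (limma adjusted p = 0.802).

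Khk, which encodes ketohexokinase, lay higher in siRetSat without passing the threshold. Khk read 7.92, 8.06 and 7.94 in siControl and 8.37, 8.10 and 8.33 in siRetSat. The groups did not overlap, although siRetSat 2 was only 0.04 above siControl 2. The log2 fold change was 0.29 (SE 0.102, 95% interval 0.06 to 0.53, limma adjusted p = 0.215), or 1.23-fold, and it stayed positive in all 19 alternative fits, from 0.14 to 0.42, without passing in any. Khk, Pgd and Taldo1 made 3 of 7 measured genes whose siRetSat arrays all lay above the siControl arrays, against 9.33% of all genes. In the other direction it was 0 of 7, against 10.1% of all genes, and in either direction 19.5% of all genes did not overlap.

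The fructose and glucose transporters did not pass the threshold either. Slc2a2 encodes GLUT2, the low-affinity carrier of hepatocytes for glucose and fructose. The log2 intensity of Slc2a2 was 7.25, 7.85 and 7.35 in siControl and 7.43, 7.23 and 7.25 in siRetSat. A single array, siControl 2, stood above the other 5, and the groups overlapped. The log2 fold change was -0.18 (95% interval -0.54 to 0.18, limma adjusted p = 0.752) with that array and 0.0033 without it. Over the 19 alternative fits the Slc2a2 value ran from -0.43 (array weights, limma adjusted p = 0.0538) to 0.04 (without both arrays numbered 2), and it passed in 0 of them. Slc2a5 encodes GLUT5, a fructose carrier best known from the intestine. Its values of 3.77, 3.73 and 3.82 in siControl and 3.77, 3.48 and 3.64 in siRetSat lay on average below 3.78, the 40th percentile of all probe sets. A change in Slc2a5 could be missed at so low a signal. The log2 fold change was -0.14 (95% interval -0.37 to 0.08, limma adjusted p = 0.646).

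**Figure D2:**
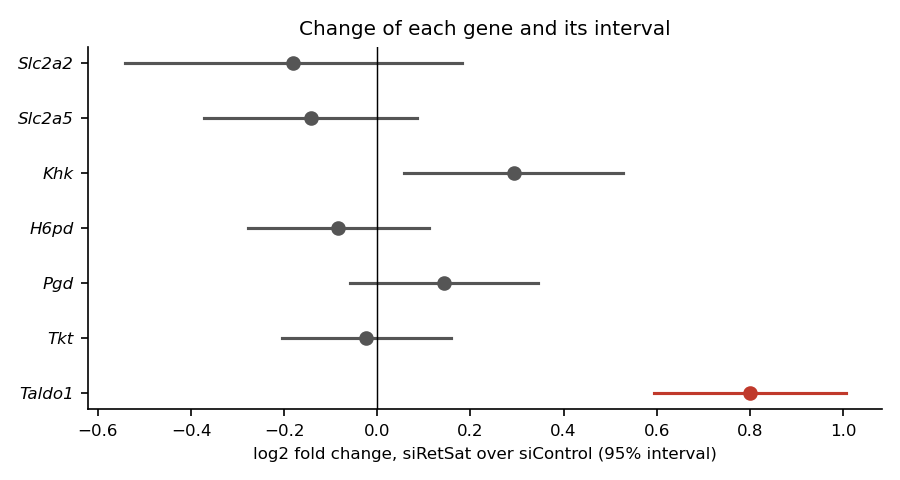
Log2 fold change of siRetSat over siControl (x axis) for each measured gene, with its 95% interval from limma as a line (3 arrays per group). Taldo1, in red, passed the adjusted threshold at 0.80, and of the genes in grey the interval of Khk lies above 0 while the intervals of Slc2a2, Slc2a5, H6pd, Pgd and Tkt span it.

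The median log2 fold change over the 7 measured genes was -0.02, beside 0.0033 over all genes. At an unadjusted p under 0.05 limma gave 2 of the 7 higher, Khk and Taldo1, and 0 lower, against 6.98% and 7.52% of all genes. The methods' t-test gave the same counts for the 7 genes, against 6.78% and 7.3% of all genes. The study's own cutoffs set a minimum fold beside a limit on unadjusted p, and by them Taldo1 alone was counted as higher and no gene as lower, against 4.47% and 4.58% of all genes (9.05% in either direction).

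Enzymes that work beside these genes were read as whole lists by pathway. Of 15 other measured genes of the pentose phosphate pathway and ribose handling, 1 rose, 0 fell and 14 did not pass, with a median log2 fold change of -0.01. The gene that rose was Prps2, which encodes a phosphoribosyl pyrophosphate synthetase and so uses the ribose 5-phosphate that the pathway makes. Prps2 read 7.36, 7.47 and 7.46 in siControl and 8.13, 8.08 and 8.12 in siRetSat. The groups were again far apart, with a log2 fold change of 0.68 (SE 0.0824, limma adjusted p = 0.00467) that passed in all 6 fits leaving out a single array. Like that of Taldo1, it did not pass without both arrays numbered 2 (limma adjusted p = 0.208) or without both numbered 3 (limma adjusted p = 0.0973). G6pd2 encodes a copy of glucose-6-phosphate dehydrogenase that lacks introns, so that its probes may also bind transcripts of G6pdx. G6pd2 read 6.31, 6.46 and 6.44 in siControl and 6.11, 5.78 and 6.10 in siRetSat, all lower, with a log2 fold change of -0.41 (limma adjusted p = 0.114). Pgls, which encodes the lactonase between the oxidative steps, overlapped between groups at 0.20 (limma adjusted p = 0.613).

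Of 13 other measured enzymes of fructose and polyol metabolism, 1 rose, 0 fell and 12 did not pass, with a median log2 fold change of -0.02. Dcxr, which encodes the L-xylulose reductase of the uronate route to xylulose, read 7.07, 6.66 and 6.47 in siControl and 7.65, 7.50 and 7.49 in siRetSat. It rose by 0.81 (SE 0.151, limma adjusted p = 0.0262) and passed in 1 of the 6 fits that left out a single array, the one without siControl 1. Downstream of ketohexokinase, Tkfc encodes the kinase that phosphorylates the glyceraldehyde released from fructose 1-phosphate, and Glyctk encodes glycerate kinase. Tkfc read 8.26, 8.28 and 8.09 in siControl and 8.54, 8.70 and 8.57 in siRetSat, a log2 fold change of 0.39 (limma adjusted p = 0.0696). For Glyctk the log2 fold change was 0.36 (limma adjusted p = 0.0862), and in both genes all siRetSat arrays lay above all siControl arrays. Hk2, a hexokinase, and Aldoa, the muscle-type aldolase, lay on the opposite side, at -0.52 (limma adjusted p = 0.0786) and -0.38 (limma adjusted p = 0.152). At the study's cutoffs with limma, 3 genes of this list were higher and 2 lower, Hk2 and Aldoa, against 4.47% and 4.58% of all genes. The paper names Aldoa among the glycolytic genes that went down on RetSat depletion. Of 19 alternative fits, Tkfc passed in 4, Glyctk in 2, Hk2 in 6 and Aldoa in 3.

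No other sugar transporter of 12 measured passed the threshold, and at an unadjusted p under 0.05 both limma and the methods' t-test gave 1 higher and 1 lower. The lower one was Slc2a1, which encodes the GLUT1 glucose carrier, with 9.79, 10.00 and 9.75 in siControl and 9.51, 9.33 and 9.33 in siRetSat. These groups did not overlap, and the log2 fold change of -0.46 had a limma adjusted p of 0.0562 and passed in 6 of 19 alternative fits, with adjusted p from 0.00165 to 0.693. Slc2a9, a urate and hexose carrier, had 0.27 (limma adjusted p = 0.174).

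**Figure D3:**
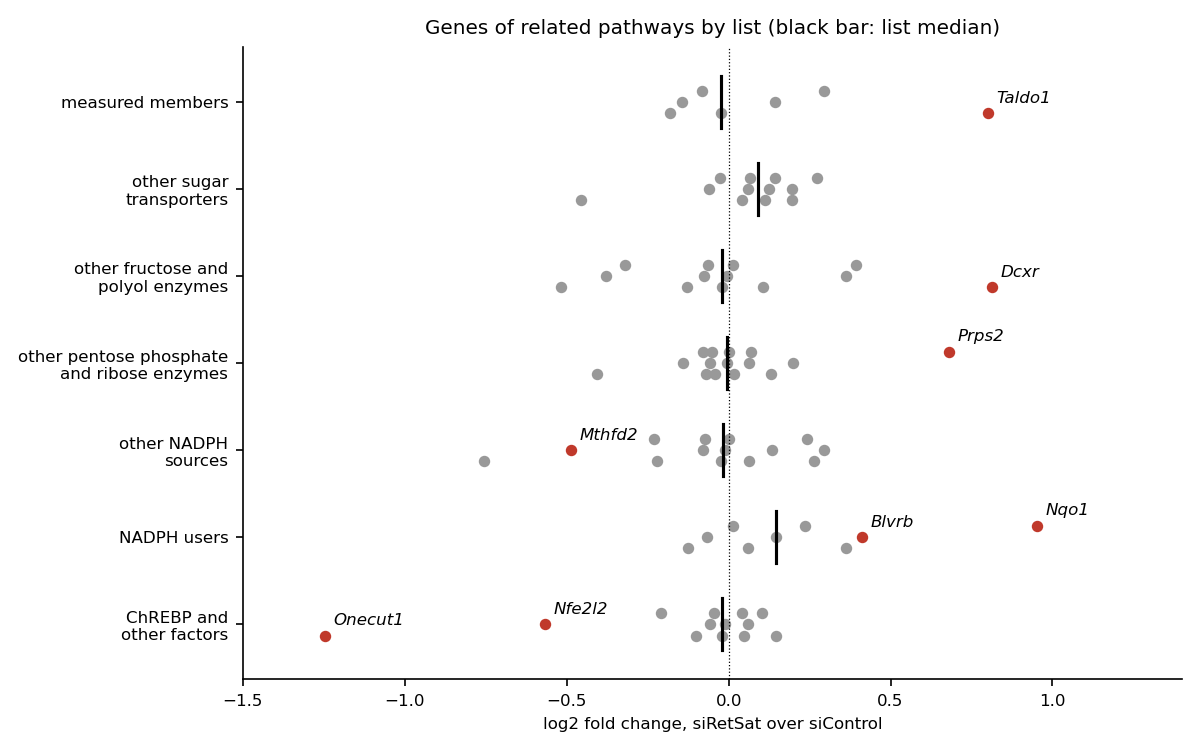
Log2 fold change of siRetSat over siControl (x axis) for the 7 measured genes and the measured genes of 6 lists of related pathways, 1 dot per gene, stacked only for legibility. Red dots passed an adjusted p of 0.05 from limma, black bars are list medians, and the red dots range from Onecut1, the lowest, to Nqo1 at 0.95.

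NADPH, the product of the oxidative arm, has other sources and many users. Among 14 genes listed as other NADPH sources or related enzymes, which include the NAD kinases Nadk and Nadk2, 0 rose, 1 fell and 13 did not pass (median -0.02). Mthfd2, a mitochondrial folate dehydrogenase, fell, from 8.45, 8.33 and 8.30 in siControl to 7.86, 7.87 and 7.89 in siRetSat, a log2 fold change of -0.49 (limma adjusted p = 0.0209) that passed in 1 of the 6 fits leaving out a single array (without siRetSat 1). Aldh1l2 lay further down, at -0.76 (limma adjusted p = 0.0563), and passed in 7 of 19 alternative fits. At an unadjusted limma p under 0.05, 3 of these 14 genes were higher and 3 lower, against 6.98% and 7.52% of all genes. Which cofactor these enzymes reduced was not measured. Among 9 measured users of NADPH and enzymes of glutathione and thioredoxin recycling, 2 rose, 0 fell and 7 did not pass (median 0.15). Of all genes 1.91% rose and 1.66% fell. At an unadjusted p under 0.05, limma and the methods' t-test each gave 4 of the 9 higher, against 6.98% and 6.78% of all genes, and 0 lower. In 4 of the 9 all siRetSat arrays lay above all siControl arrays, against 9.33% of all genes, and in 0 all lay below. Nqo1, a quinone reductase, read 5.91, 6.03 and 6.20 in siControl and 6.62, 7.22 and 7.16 in siRetSat, a log2 fold change of 0.95 (limma adjusted p = 0.0209). It did not pass without siControl 1, siControl 2, siRetSat 2 or siRetSat 3. Blvrb, which encodes biliverdin reductase B, rose by 0.41 (limma adjusted p = 0.0408) and passed in 0 of those 6 fits.

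ChREBP, other transcription factors known to act on sugar and NADPH genes, the NRF2 adaptor Keap1 and the phosphatase Tigar were examined on the mRNA level only. Of these 13 measured genes, 0 rose, 2 fell and 11 did not pass (median -0.02). Nfe2l2 encodes NRF2, an inducer of Nqo1 and of pentose phosphate enzymes, and read 10.26, 10.63 and 10.41 in siControl and 9.77, 9.94 and 9.89 in siRetSat. Its log2 fold change was -0.57 (limma adjusted p = 0.0363), and it passed in 1 of the 6 fits that left out a single array, the one without siControl 1. The arrays do not measure NRF2 protein or activity, and any part of NRF2 in the changes of Taldo1 and Nqo1 was not tested. Onecut1, a factor of hepatocyte identity, fell, from 6.48 ± 0.15 in siControl to 5.23 ± 0.20 in siRetSat (mean ± SD, n = 3 each) (limma adjusted p = 0.00249), and passed in 17 of 19 alternative fits, not with the methods' t-test (adjusted p = 0.0647) or without both arrays numbered 2 (limma adjusted p = 0.126). Mlxipl, which encodes ChREBP, lay at 5.50 to 5.54 in siControl and 5.56 to 5.58 in siRetSat, a log2 fold change of 0.05 (limma adjusted p = 0.900).

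Where limma called 0 genes of a list in a direction, the counts at an unadjusted p under 0.05 were as follows. Limma and the methods' t-test gave 1 and 1 lower for the pentose phosphate list, 2 and 2 lower for the fructose and polyol list and 0 and 0 lower for the users of NADPH. They gave 3 and 2 higher for the sources of NADPH and 0 and 2 higher for the list of ChREBP and other regulators. These counts stand beside 6.98% of all genes higher and 7.52% lower by limma, and 6.78% and 7.3% by the methods' t-test.

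By a search over all genes, the values most like those of Taldo1 across the 6 arrays were those of Zfp740, Rnf183 and Ociad2, with Pearson correlations of 0.996, 0.996 and 0.996. The 6 points form 2 groups, so that these values mostly describe the step between siControl and siRetSat. The step was 0.10 for Zfp740, 0.64 for Rnf183 and 0.61 for Ociad2 on the log2 scale.

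Markers of the labelled cell type and of other liver cells were read from the same arrays. Of 11 measured hepatocyte markers, 0 were higher and 2 lower (Cps1 at -0.82 and Tat at -0.72), with Cyp3a11 at 0.64 (limma adjusted p = 0.0761). The log2 fold changes of the hepatocyte list ran from -0.82 to 0.64 with a median of 0.07. At an unadjusted limma p under 0.05, 1 of them was higher and 3 lower, against 6.98% and 7.52% of all genes. The list's mean log2 intensity was 8.19 to 8.46 in siControl and 8.17 to 8.24 in siRetSat. Macrophage markers averaged 4.49 to 4.60 and 4.57 to 4.71, with Cd14 higher (0.59) and 0 lower among 14. Their log2 fold changes ran from -0.12 to 0.59 with a median of 0.02. Of the 14, 8 averaged below 3.78 over all arrays, the limit given above for Slc2a5. Cd68 had a log2 fold change of 0.40 (limma adjusted p = 0.0563), and Adgre1, a defining marker, averaged 3.16 and 3.25. Stellate cell and fibroblast markers averaged 5.41 to 5.60 and 5.22 to 5.61, with Acta2 lower (-2.40) and 0 higher among 12. Their log2 fold changes ran from -2.40 to 0.70 with a median of 0.045, so the list did not fall as a whole. Levels differed widely within this list. Acta2 averaged 10.09 in siControl and 7.68 in siRetSat, while 3 of the 12 averaged below 3.78 over all arrays. Endothelial markers averaged 4.98 to 5.10 and 5.10 to 5.21, with 0 of 10 called by limma or the methods' t-test and 1 at an unadjusted p under 0.05. Bile duct markers averaged 5.12 to 5.16 and 5.14 to 5.30, with Sox9 higher (0.45) and 0 lower among 6. The bile duct log2 fold changes ran from -0.21 to 0.45 with a median of 0.01, so this list did not rise as a whole. At an unadjusted limma p under 0.05, 2 of the 6 were higher and 0 lower. Of the 6 fits that omitted 1 array, Cps1 passed in 2, Tat in 1, Cd14 in 2, Sox9 in 1 and Acta2 in 6, and of these genes Acta2 alone passed with the methods' t-test after adjustment. In RNA of whole cultures, fewer cells of a type and less RNA per cell cannot be told apart, and the part of other cell types in the rise of Taldo1 was not tested.

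**Figure D4:**
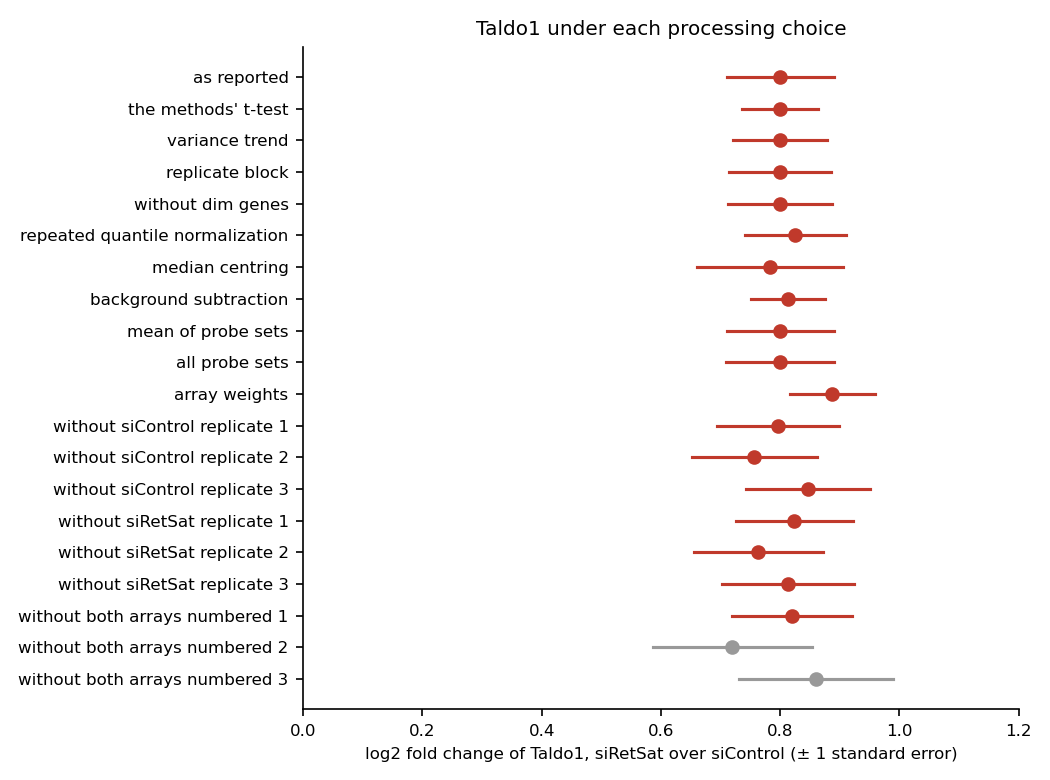
Log2 fold change of Taldo1 (x axis, with 1 standard error to each side) as reported and under each of 19 alternative fits (y axis). Red marks an adjusted p under 0.05 and grey the fits that did not pass, and the values lie between 0.72 and 0.89.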

How the data were processed

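Total RNA (100 ng per sample) of 3 siControl and 3 siRetSat hepatocyte cultures was profiled on Affymetrix Mouse Gene 1.0 ST arrays. The deposited values are normalized log2 intensities of 35556 probe sets, which per the labels' processing notes were made by RMA in software that includes Partek 6.6. The annotation version and any filtering by the authors are not given in the sources used. RMA makes the arrays' distributions alike, so changes are relative to the other genes on an array, and array medians lay between 4.29 and 4.50.

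Gene symbols came from GEO's platform annotation of the probe sets (21789 with 1 symbol, 1621 with several, 12146 with none), and symbols were updated by Entrez identifier with RefSeq's gene table (GRCm38.p6), where 21698 matched. The brightest probe set per gene gave 19938 genes, compared as siRetSat minus siControl with limma 3.58.1 (lmFit, eBayes) under R 4.3.3, without covariates. Intervals are limma's, at 95%. The fit was tested on simulated data with known changes. The genes and lists were chosen with earlier results of these data known. Genes named were the listed ones, Retsat, those of each list past an adjusted p of 0.05 or else those with the smallest p, and the 3 most like Taldo1. Tkfc, Glyctk, Hk2, Aldoa, G6pd2, Pgls, Aldh1l2, Mlxipl, Adgre1, Cyp3a11, Cd68 and the motifs were named after values were seen. Promoters are RefSeq's for GRCm38.p6, and all 9 listed genes had a window. Alternatives were the methods' t-test, a variance trend, a replicate block, removal of genes below the 40th percentile of signal, repeated quantile normalization, median centring, subtraction of the 5th percentile (floor 16), averaged probe sets, all probe sets, array weights, the study's cutoffs and the omission of each array. Omission of both arrays of a number was added after seeing the data. Python 3.11.15, pandas 2.3.3 and matplotlib 3.10.9 were used.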

Additional observations from a re-analysis of the deposited data

How the results depend on the processing

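The count of 1 listed gene higher and 0 lower held in all alternatives except without both arrays numbered 2 or 3, where it was 0 higher. Over all genes, 380 higher and 330 lower became 100 and 96 with the methods' t-test, 736 and 805 with the replicate block, 188 and 154 with median centring, 193 and 136 probe sets with every probe set tested and 1457 and 1448 with array weights. They became 892 and 913 at the study's cutoffs with limma and 718 and 707 at these cutoffs with the methods' t-test. With background subtraction 222 were higher, and with a variance trend 543 were lower. Leaving out a single array gave 119 to 402 higher and 88 to 248 lower, with both counts over 1.5 times smaller without siControl 2 (119 and 88), siControl 3 (180 and 114), siRetSat 2 (129 and 97) or siRetSat 3 (158 and 159), and the higher count also without siControl 1 (231). Leaving out both arrays numbered 2 gave 10 and 5, and both numbered 3 gave 71 and 40. The cause of these differences was not tested, beyond fewer arrays or more features tested where the choice brings them. Same-numbered arrays deviated together by correlations of 0.547, 0.0398 and 0.541 for numbers 1, 2 and 3. The main fit did not pair the samples by number, although the values for numbers 1 and 3 leave such a pairing possible. The block changed no call among the 7 measured genes. Of the related genes named as not passed, Slc2a1 (limma adjusted p = 0.0298), Tkfc (0.0275), Hk2 (0.0111), Aldoa (0.0334), Aldh1l2 (0.0024), Cd68 (0.0356) and Cyp3a11 (0.00541) passed with the block. With the methods' t-test after adjustment, Dcxr, Nqo1, Blvrb, Nfe2l2, Onecut1, Cps1, Tat, Cd14 and Sox9 did not pass. The sign of Slc2a2 turned without siControl 2 (0.0033, with -0.2967 to 0.0033 when each array in turn was left out) and without both arrays numbered 2 (0.04), and that of Tkt under repeated quantile normalization (0.0056) and array weights (0.0088). That of Adgre1, a dim probe set, turned under array weights (-0.0492) and without both arrays numbered 1 (-0.04). Slc2a5 could not be fitted without dim genes, and under background subtraction all its values lay at the floor.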
